A study of Mus musculus with 16 samples.

Results

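The genes described here encode enzymes and factors for the disposal of quinones, aldehydes and epoxides, namely Nqo1, Ephx1, Cbr1, Cbr3, Aldh3a1, Akr1b8, Ptgr1, Aox1 and Osgin1. They were taken by name, 9 of 55367 gene symbols in the count tables, and all 9 passed edgeR's filter on low counts. The cells were mIMCD3, epithelial cells of collecting duct origin from the inner medulla of a mouse kidney. WT cells received DMSO, the solvent, or 10 µM SFN (sulforaphane, an isothiocyanate that activates Nrf2) for 5 h, and RNA was taken under isosmotic conditions or after 1 h or 6 h at 600 mOsm. Nrf2-/- cells, made by lentiviral delivery of Cas9 and a guide followed by drug selection, were present only with SFN, isosmotic and after 1 h. Nrf2-/- cells given DMSO were not analysed here, so an SFN effect within that genotype could not be measured, and whether the Nrf2-/- cells were 1 clone or a pool was not given in the sources used here. Each of the 8 groups held 2 libraries, 16 in all.

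Nrf2, encoded by Nfe2l2, is a transcription factor that is normally held in the cytoplasm and degraded through Keap1. Electrophiles such as SFN modify Keap1, Nrf2 enters the nucleus, and with small Maf proteins it binds antioxidant response elements near genes for detoxification. Quinones, reactive aldehydes and epoxides are electrophiles themselves, so their removal by reduction, oxidation or hydrolysis belongs to the classical output of this pathway. In the renal medulla, cells also face high and changing osmolality, and aldo-keto reductases have a separate role there in making the osmolyte sorbitol.

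Totals per library lay between 34484296 and 50774875 counts. The biological coefficient of variation between the libraries of a group was 0.0393 to 0.128 in 7 groups and 0.348 in Nrf2-/- SFN cells at 1 h, so results that move without the latter pair are given both ways. Nfe2l2 counts, the check of the knockout, were 64.0 to 149 CPM (counts scaled by TMM-normalized library size) in the 12 WT libraries and 11.0 to 11.6 CPM in the 4 Nrf2-/- libraries. Of 14 markers of collecting duct and kidney epithelium, 11 reached a mean of 1 CPM, and Aqp2, Aqp3 and Avpr2, which define principal cells in the kidney, did not. With 2 libraries a group, an exact permutation test of a single value cannot go below p = 0.333, so tests came from edgeR's quasi-likelihood fit across 19509 genes, and p-values measure only the spread between these libraries.

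The 250 bases before the RefSeq start (GRCm38.p6) are shown for the 3 genes whose levels moved most clearly with SFN or with stress, Nqo1 (chr8:107403206-107403455, minus strand), Osgin1 (chr8:119436897-119437146, plus strand) and Akr1b8 (chr6:34353896-34354145, plus strand). Capitals mark a match to the AP-1 motif TGANTCA.
Nqo1: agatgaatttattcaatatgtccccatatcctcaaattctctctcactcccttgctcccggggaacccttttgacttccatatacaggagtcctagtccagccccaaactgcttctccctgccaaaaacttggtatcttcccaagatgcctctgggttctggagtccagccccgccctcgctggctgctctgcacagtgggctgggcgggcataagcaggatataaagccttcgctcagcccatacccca
Osgin1: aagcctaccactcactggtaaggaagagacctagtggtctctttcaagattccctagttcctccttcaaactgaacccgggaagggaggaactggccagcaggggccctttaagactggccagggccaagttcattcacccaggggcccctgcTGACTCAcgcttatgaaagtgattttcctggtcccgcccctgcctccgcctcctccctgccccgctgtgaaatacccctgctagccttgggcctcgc
Akr1b8: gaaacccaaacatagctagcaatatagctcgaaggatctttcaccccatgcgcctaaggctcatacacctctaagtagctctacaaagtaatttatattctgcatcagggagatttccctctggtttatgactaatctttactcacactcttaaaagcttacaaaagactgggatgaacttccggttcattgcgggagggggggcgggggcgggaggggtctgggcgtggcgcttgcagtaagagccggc

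RefSeq windows, which run from 250 bases before to 50 after the start, were found for 8 of the 9 genes, all but Aldh3a1. The antioxidant response element core was searched as TGACNNNGC, AP-1 as TGANTCA and the core bound by the osmotic stress factor NFAT5 as TGGAAA, each on both strands, where a TGANTCA match can overlap the element core. None of the 8 windows held TGACNNNGC, which 12.5% of 27025 promoter windows held, and none held TGGAAA, which 21.5% held. The letters TGACTCA stood 97 bases before the Osgin1 start and 220 bases before the Aox1 start, and TGANTCA was found in 7.93% of windows. Matches and missing matches describe these letters in these windows only. In the GENCODE M21 annotation, Osgin1 spans chr8:119434124-119446256, so its RefSeq start lies inside a longer annotated gene, whereas Nqo1 (chr8:107388225-107403206) begins next to the window shown.

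Per kilobase of exon, Akr1b8 was the highest of the 9 in isosmotic DMSO cells at a mean of 32.8 RPKM (CPM divided by the length of exons in kilobases), followed by Cbr1 at 16.5 RPKM, Ephx1 at 9.22 RPKM, Osgin1 at 8.69 RPKM and Ptgr1 at 6.03 RPKM. Cbr3 at 2.38 RPKM and Nqo1 at 1.74 RPKM were low, and Aldh3a1 (0.0245 RPKM) and Aox1 (0.0157 RPKM) were near the limit of detection. The best known quinone reductase was thus among the less abundant transcripts of the set in this line.

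**Figure D1:**
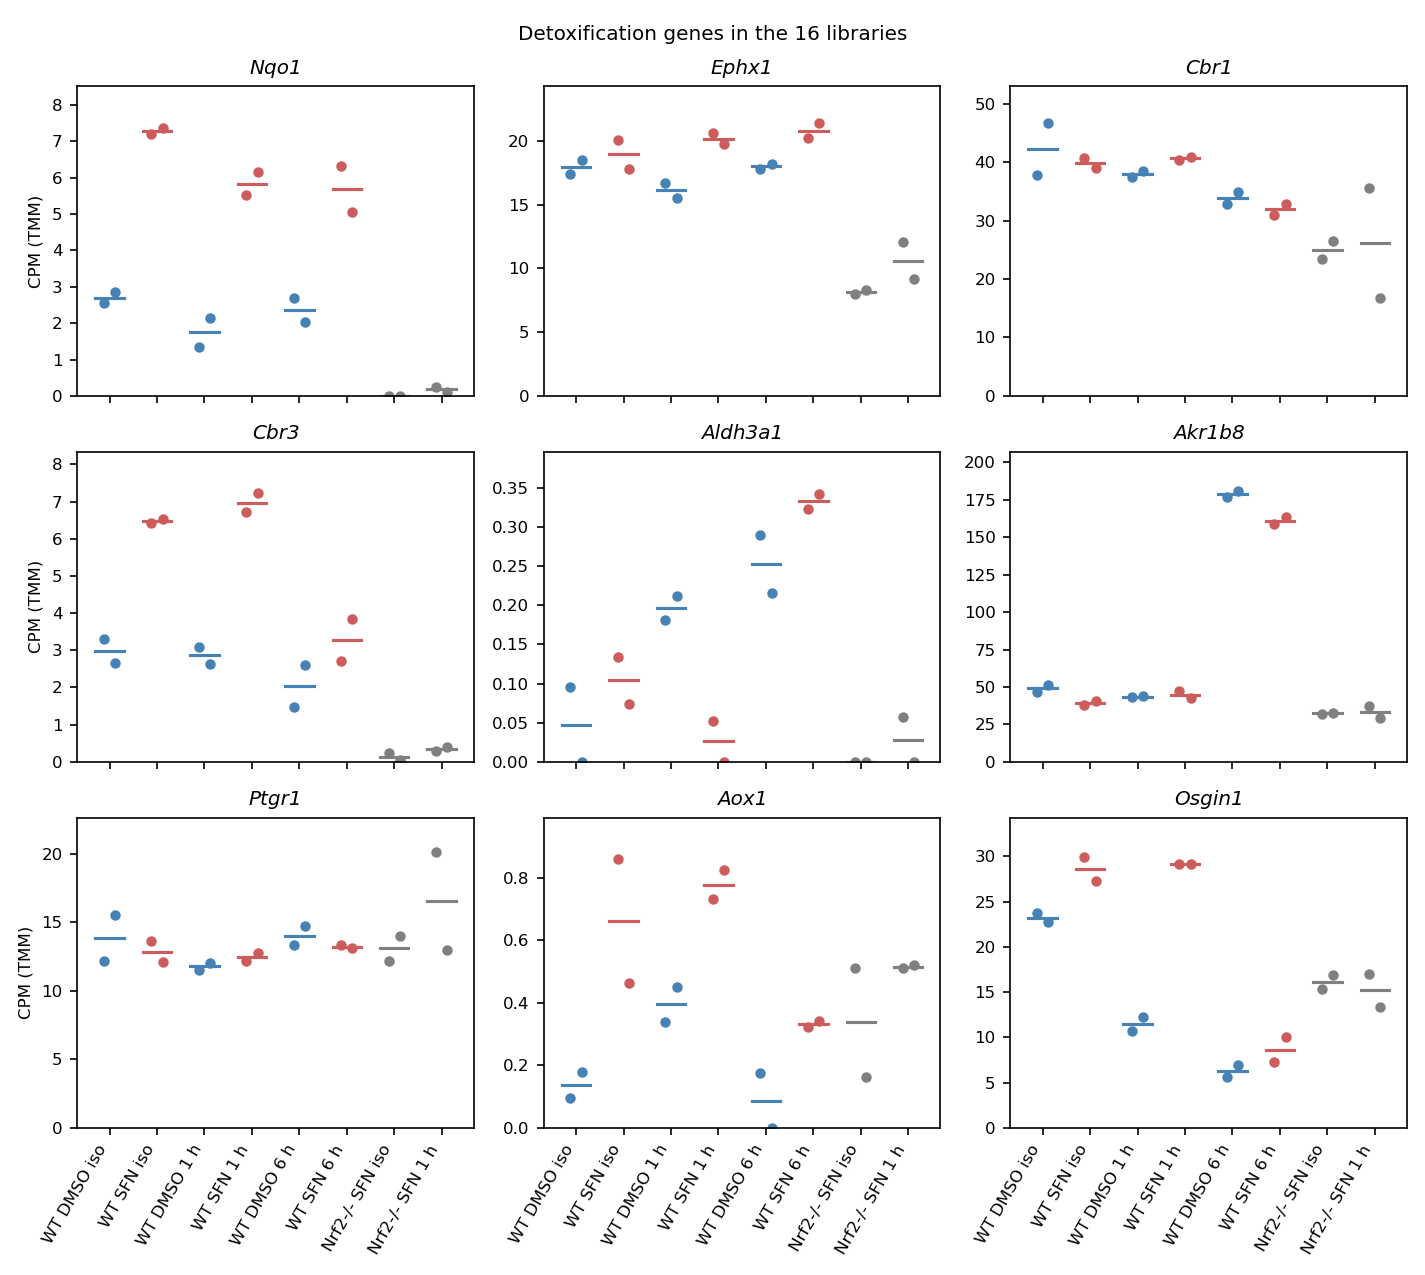
TMM-normalized CPM (y axis, linear from 0, own scale per gene) of the 9 genes in the 16 libraries, grouped on the x axis by genotype, pretreatment and state; each point is 1 library, each short line a group mean, blue DMSO, red SFN in WT and grey SFN in Nrf2-/- cells. Nqo1 and Cbr3 sit near 0 in the grey groups, Akr1b8 is high in the 6 h groups, and Osgin1 is low in DMSO cells at 1 h and in both 6 h groups.

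SFN raised Nqo1 in isosmotic WT cells, and it raised Nqo1 and Osgin1 in cells taken after 1 h of hyperosmotic stress. The other genes of the set passed no SFN test in edgeR's fit of all libraries. Nqo1 encodes NAD(P)H quinone dehydrogenase, which reduces quinones fully to hydroquinones and so bypasses reactive semiquinones. Under isosmotic conditions it stood at 2.55 and 2.85 CPM with DMSO and at 7.19 and 7.38 CPM with SFN. After 1 h of stress the DMSO libraries held 1.36 and 2.15 CPM and the SFN libraries 5.53 and 6.15 CPM. After 6 h the values were 2.69 and 2.04 CPM with DMSO and 6.31 and 5.05 CPM with SFN.

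In each of the 3 states, both SFN libraries lay above both DMSO libraries for Nqo1, and no SFN library of any state fell within the DMSO range of another. The log2 fold change was 1.43 ± 0.27 (SE) under isosmotic conditions (2.69-fold, adjusted p = 0.0113, edgeR), 1.74 ± 0.28 at 1 h (3.34-fold, adjusted p = 0.0375, edgeR) and 1.26 ± 0.28 at 6 h (2.40-fold, adjusted p = 0.521, edgeR). Without both Nrf2-/- 1 h libraries the same fold changes had adjusted p = 0.000247, 0.000419 and 0.0325, so the 6 h call depended on whether the wide pair entered the estimate of spread. Removing any 1 of the 4 isosmotic libraries compared raised the isosmotic adjusted p to between 0.0625 and 0.1004, and removing any 1 of the 12 WT libraries raised that at 1 h to between 0.0606 and 0.994, with log2 fold changes of 1.44 to 2.10. The SFN effect on Nqo1 at 1 h exceeded that under isosmotic conditions by 0.31 log2 units, with a 95% interval of -0.53 to 1.15 and an interaction adjusted p of 0.917 (edgeR).

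In the isosmotic comparison 1 of 9 genes rose and none fell, beside 1.09% of all tested genes called higher and 2.84% called in either direction. At 1 h 2 of 9 rose, beside 0.0923% of tested genes, which were all higher. At 6 h none of 9 passed edgeR's test (2 at an unadjusted p under 0.05), beside 0.041% of tested genes, whereas DESeq2 and limma-voom each called 1, Nqo1. Over the 7 genes with a mean of at least 50 counts the median log2 fold change was 0.08, 0.32 and 0.21 in the 3 states, and that of all tested genes was 0 under isosmotic conditions and at 1 h and 0.000810 at 6 h. The libraries of the 2 treatments did not overlap, with SFN higher, for 4 of 9 genes under isosmotic conditions, 7 of 9 at 1 h and 6 of 9 at 6 h, where 24.3%, 21.6% and 20.7% of all tested genes did so. The 6 genes at 6 h include Aldh3a1, which passed the filter through its 6 h libraries and has too few counts to be read, and Aox1, also thinly counted, is in all 3 counts. Libraries were apart with SFN lower for Akr1b8 under isosmotic conditions, the thinly counted Aldh3a1 at 1 h, and Akr1b8 and Ptgr1 at 6 h. The share of all tested genes apart in that direction was not counted, so these cases cannot be set against it.

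**Figure D2:**
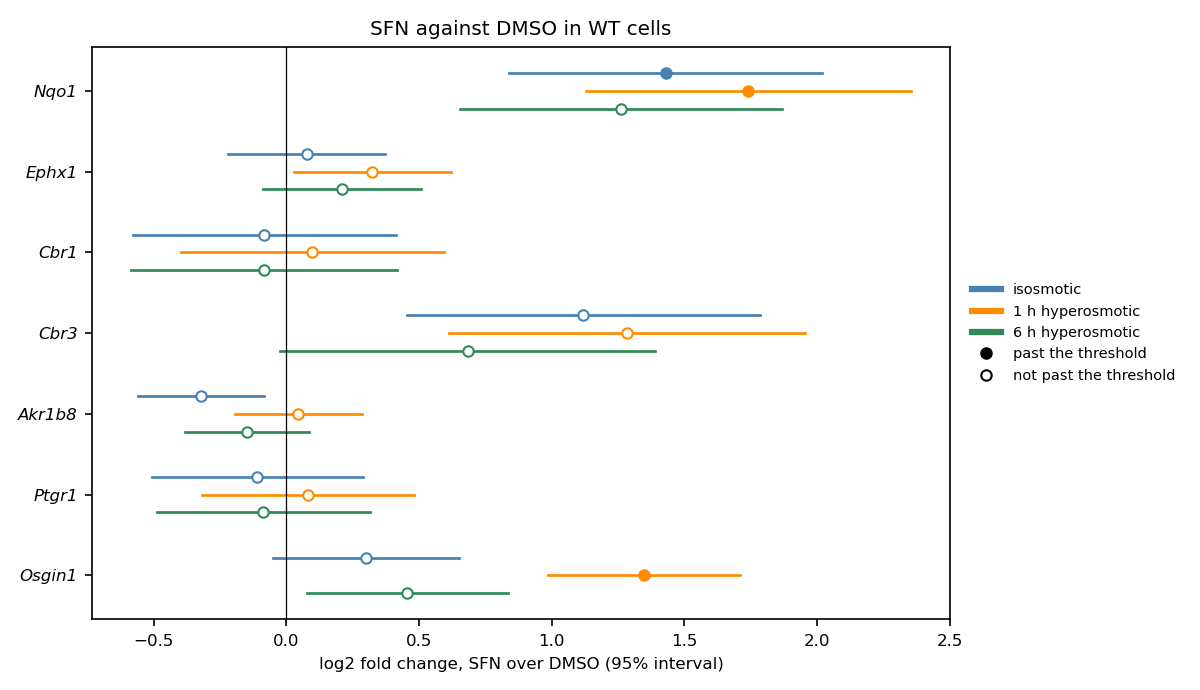
Log2 fold change of SFN over DMSO in WT cells (x axis, with 95% interval from edgeR) for the 7 genes with a mean of at least 50 counts, in isosmotic cells (blue), at 1 h (orange) and at 6 h (green) of hyperosmotic stress; filled points had an adjusted p under 0.05. Only Nqo1 in the isosmotic and 1 h states and Osgin1 at 1 h are filled, and the intervals of Cbr3 lie to the right of 0 in those 2 states.

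Among the carbonyl reductases, which use NADPH to reduce quinones and ketones, the neighbours Cbr3 and Cbr1 on chromosome 16 differed in their values. Cbr3 stood at 3.31 and 2.65 CPM with DMSO and at 6.44 and 6.52 CPM with SFN under isosmotic conditions, and at 3.10 and 2.62 CPM against 6.73 and 7.22 CPM at 1 h. The SFN libraries were apart from the DMSO libraries in both states. Log2 fold changes were 1.12 ± 0.31 (adjusted p = 0.0742, edgeR) and 1.28 ± 0.31 (adjusted p = 0.457, edgeR), and without both Nrf2-/- 1 h libraries they were 1.12 and 1.28 with adjusted p = 0.00558 and 0.0208. With all libraries, Cbr3 was called in both states by DESeq2 (adjusted p = 0.0103 and 0.0263) and limma-voom (adjusted p = 0.00811 and 0.00183). At 6 h Cbr3 was 1.48 and 2.59 CPM with DMSO and 2.70 and 3.83 CPM with SFN, again apart, at a log2 fold change of 0.68 ± 0.33 (adjusted p = 1, edgeR). Cbr1 was 37.7 and 46.7 CPM with DMSO and 40.7 and 39.0 CPM with SFN in isosmotic cells, and its 95% interval for SFN, -0.58 to 0.41 log2 units, held 0. Cbr1 and Cbr3 transcripts shared 1 of 2645 stretches of 50 bases of Cbr1, so little sequence is common to both.

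Osgin1, an oxidative stress induced growth inhibitor and a known Nrf2 target, showed a pattern of its own. In isosmotic cells it was 23.7 and 22.8 CPM with DMSO and 29.9 and 27.3 CPM with SFN. After 1 h it was 10.7 and 12.2 CPM with DMSO and 29.2 and 29.1 CPM with SFN, and after 6 h 5.62 and 6.98 CPM with DMSO and 7.28 and 10.0 CPM with SFN. It was thus lower in DMSO cells at 1 h than in isosmotic DMSO cells, whereas SFN cells at 1 h overlapped isosmotic SFN cells. At 6 h all 4 libraries lay below every isosmotic and 1 h library.

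The SFN effect on Osgin1 was 0.30 ± 0.16 log2 units in isosmotic cells (adjusted p = 0.411, edgeR), 1.35 ± 0.17 at 1 h (2.55-fold, adjusted p = 0.00254, edgeR) and 0.46 ± 0.18 at 6 h (adjusted p = 1, edgeR). Without replicate 1 of the DMSO 1 h libraries the 1 h effect was 1.25 with adjusted p = 0.155, and without both Nrf2-/- 1 h libraries it was 1.35 with adjusted p = 6.70e-07. The difference between the 1 h and isosmotic SFN effects was 1.05 ± 0.23 log2 units, with a 95% interval of 0.55 to 1.55. Its interaction test gave adjusted p = 0.0728 in the fit of all libraries and 0.000795 without both Nrf2-/- 1 h libraries. None of the 9 genes passed edgeR's interaction test at 1 h (2 at an unadjusted p under 0.05), beside 0.559% of tested genes, whereas DESeq2 and limma-voom each called Osgin1. At 6 h none passed (0 at an unadjusted p under 0.05, and 0 by DESeq2 and by limma-voom), beside 0.759%.

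Compared with isosmotic cells of the same pretreatment, Akr1b8 was higher and Osgin1 lower after 6 h of stress. The labels give no isosmotic libraries matched to 1 h or 6 h. In every stress comparison here, hyperosmolality and further time in culture therefore cannot be told apart. Akr1b8 is an aldo-keto reductase that reduces aliphatic and aromatic aldehydes and retinal. It held 46.7 and 51.6 CPM in isosmotic DMSO cells, 43.2 and 44.0 CPM at 1 h and 177 and 181 CPM at 6 h. With SFN the values were 38.0 and 40.8 CPM, then 47.3 and 42.7 CPM, and 159 and 163 CPM at 6 h. The 6 h libraries stood far above all others, and the 2 pretreatments did not overlap at 6 h, DMSO being the higher (SFN effect -0.15 ± 0.11 log2 units, adjusted p = 1, edgeR).

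Akr1b8 rose by 1.86 ± 0.11 log2 units with DMSO (3.64-fold, adjusted p = 1.66e-08, edgeR) and by 2.03 ± 0.11 with SFN (4.09-fold, adjusted p = 6.43e-09, edgeR), and neither 1 h comparison passed the test. The SFN effect on the 6 h rise was 0.17 log2 units, with a 95% interval of -0.16 to 0.50. In isosmotic cells Akr1b8 was 0.32 ± 0.11 log2 units lower with SFN (adjusted p = 0.164, edgeR), and without both Nrf2-/- 1 h libraries that difference had adjusted p = 0.00725.

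Relatives lie beside Akr1b8 on chromosome 6, aldose reductase Akr1b3, which makes sorbitol from glucose, and Akr1b10. Akr1b3 was 340 and 380 CPM in isosmotic DMSO cells and 5496 and 5716 CPM at 6 h, a log2 fold change of 3.96 ± 0.10 (adjusted p = 8.16e-12, edgeR). Akr1b10 was 10.6 and 14.9 CPM and then 10.3 and 10.2 CPM, a log2 fold change of -0.32 ± 0.21 (adjusted p = 0.235, edgeR). Of 1448 stretches of 50 bases in Akr1b8 transcripts, 0 occurred in Akr1b3 and 31 (2.14%) in Akr1b10. How the counting treated reads shared between genes was not given in the sources used here.

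**Figure D3:**
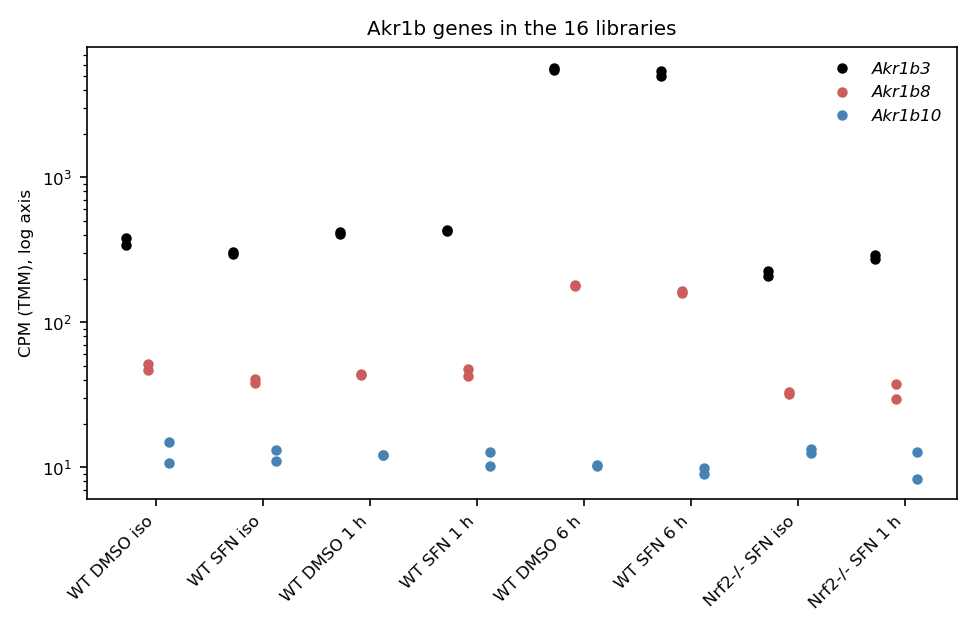
TMM-normalized CPM (y axis, log scale) of Akr1b3 (black), Akr1b8 (red) and Akr1b10 (blue) in the 16 libraries by group, 1 point per library. Akr1b3 and Akr1b8 are higher in all 4 libraries at 6 h than in the other 12, and Akr1b10 stays between 8.33 and 14.9 CPM.

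Osgin1 fell by 1.02 on the log2 scale at 1 h in DMSO cells (SE 0.17, adjusted p = 0.00123, edgeR), by 1.88 at 6 h in DMSO cells (SE 0.18, adjusted p = 9.90e-07, edgeR) and by 1.73 at 6 h in SFN cells (SE 0.17, adjusted p = 1.76e-06, edgeR). In SFN cells at 1 h the log2 difference was 0.03 ± 0.16 (adjusted p = 0.967, edgeR). Nfe2l2 itself was higher at 6 h, at 140 to 149 CPM in the 4 libraries against 64.0 to 78.0 CPM in the 8 WT libraries of the other states. Cbr3 fell by 0.99 on the log2 scale at 6 h in SFN cells (SE 0.31, adjusted p = 0.0176, edgeR). That call was lost without replicate 1 or 2 of the isosmotic SFN libraries (adjusted p = 0.0552 and 0.0664) and without replicate 1 of the 6 h SFN libraries (log2 fold change -0.77, adjusted p = 0.149).

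Counted over the set, 1 of 9 genes fell and none rose at 1 h with DMSO, beside 4.11% of all tested genes called lower and 11.2% called in either direction. With SFN at 1 h none of 9 passed edgeR's test (0 at an unadjusted p under 0.05, and 0 by DESeq2 and by limma-voom), beside 9.52%. At 6 h 2 of 9 with DMSO and 3 of 9 with SFN passed, shares that stand beside 45.9% and 47.6% of all tested genes. Ephx1, Cbr1, Ptgr1 and Nqo1 were not among the genes called at 6 h in the fit of all libraries. Without both Nrf2-/- 1 h libraries Cbr1 was called lower at 6 h, by 0.35 log2 units with DMSO (adjusted p = 0.00500) and with SFN (adjusted p = 0.00495). Ephx1, at 17.8 and 18.2 CPM with DMSO at 6 h against 17.4 and 18.5 CPM before, had a 95% interval of -0.29 to 0.30 log2 units. Markers of several cell types were also higher in the 4 WT libraries at 6 h than in the 8 of the other states, summed over each list. Kidney epithelial markers (14 genes) went from 2270 to 3376 CPM up to 4875 to 5249 CPM in sum, but single genes moved both ways. From isosmotic to 6 h DMSO cells, mean Pax2 went from 119 to 1141 CPM and mean Pax8 from 96.6 to 722 CPM. Krt19, Cdh1, Epcam and Cdh16 were also higher. Mean Krt8 went down from 1053 to 801 CPM, and Krt18, Gata3, Hoxd8 and Scnn1a were lower as well. Summed leukocyte markers were 5.85 to 9.91 and 14.0 to 17.7 CPM, endothelial markers 0.0476 to 0.742 and 3.999 to 5.36 CPM, proximal tubule markers 9.06 to 12.7 and 21.2 to 27.5 CPM, and fibroblast markers, overlapping, 2.11 to 5.08 and 4.86 to 7.29 CPM. The part of these markers in the 6 h results was not tested.

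**Figure D4:**
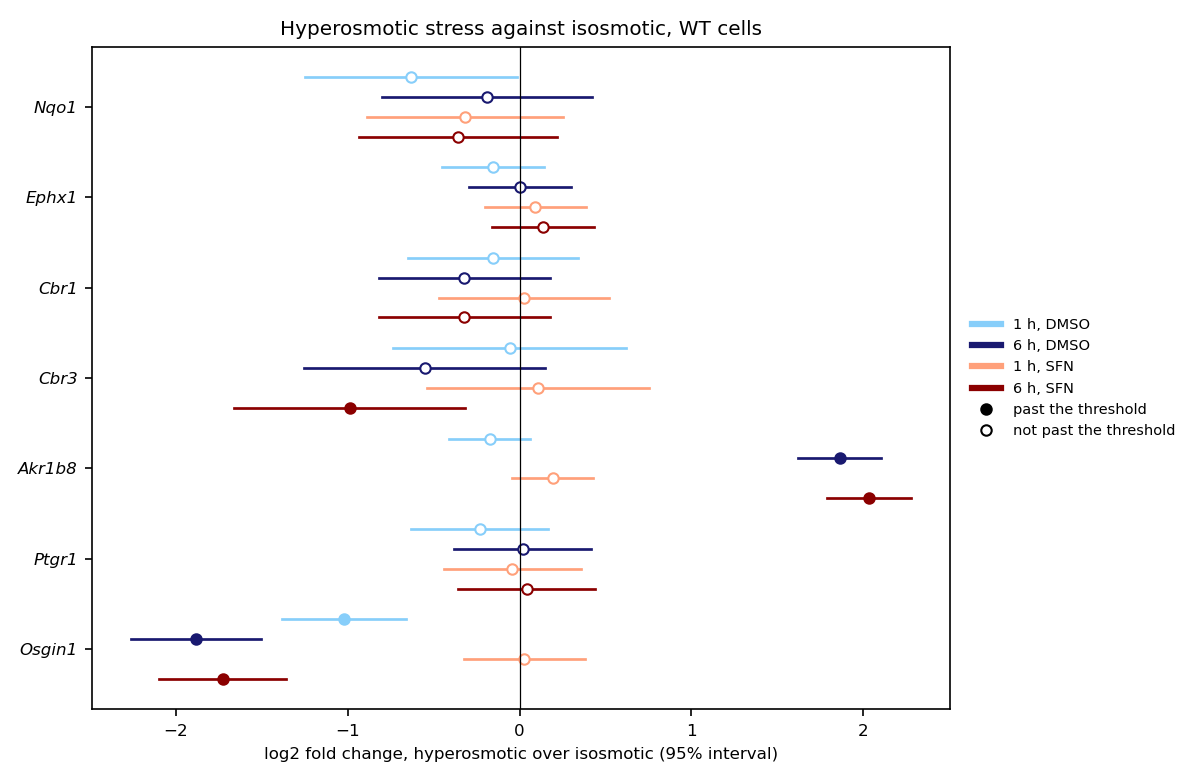
Log2 fold change of hyperosmotic over isosmotic WT cells (x axis, with 95% interval from edgeR) for the 7 genes with a mean of at least 50 counts, at 1 h and 6 h with DMSO (light and dark blue) and with SFN (light and dark red); filled points had an adjusted p under 0.05. The 6 h points of Akr1b8 lie at 1.86 and 2.03 and those of Osgin1 at -1.88 and -1.73, while the 1 h points of Osgin1 lie at -1.02 with DMSO and 0.03 with SFN.

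In cells without Nrf2, with SFN given to both genotypes, Nqo1 and Cbr3 were close to absent, and Ephx1 and Osgin1 were 1.77- to 2.32-fold lower. Nqo1 had 0 counts in both isosmotic Nrf2-/- libraries and 9 and 4 counts (0.255 and 0.115 CPM) in the 1 h libraries. With 3 counts per library as the floor, isosmotic Nqo1 was at least 87.8-fold lower than in WT SFN cells and at least 32.6-fold lower than in WT DMSO cells. At 1 h the log2 fold change was -4.95 ± 0.38 (30.9-fold lower, adjusted p = 3.24e-07, edgeR). In bulk RNA, fewer cells expressing a gene and less RNA per cell cannot be told apart.

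Cbr3 was 0.228 and 0.0537 CPM (8 and 2 counts) in isosmotic Nrf2-/- cells and 0.283 and 0.404 CPM at 1 h, all below the lowest WT library, 1.48 CPM. Its log2 fold change against WT SFN cells was -5.51 ± 0.45 under isosmotic conditions (adjusted p = 2.70e-07, edgeR) and -4.33 ± 0.40 at 1 h (adjusted p = 1.04e-06, edgeR). These values rest on 10 counts over the isosmotic and 24 over the 1 h Nrf2-/- libraries.

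Ephx1 encodes microsomal epoxide hydrolase, which opens epoxides to diols. It was 8.02 and 8.33 CPM in isosmotic and 12.1 and 9.14 CPM in 1 h Nrf2-/- cells, and 15.5 to 21.4 CPM in the 12 WT libraries, with no overlap between genotypes. The log2 fold changes were -1.21 ± 0.14 (2.32-fold lower, adjusted p = 1.12e-05, edgeR) and -0.93 ± 0.14 (1.90-fold lower, adjusted p = 0.000149, edgeR). In WT cells SFN moved Ephx1 by 0.08 log2 units in isosmotic cells (95% interval -0.22 to 0.37), 0.32 at 1 h (0.03 to 0.62) and 0.21 at 6 h (-0.09 to 0.51), none past the test. Against WT DMSO cells, a comparison in which genotype and SFN both differ, Ephx1 was 1.14 log2 units lower in Nrf2-/- SFN cells (SE 0.14, adjusted p = 2.05e-05, edgeR).

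Osgin1 stood at 15.4 and 16.8 CPM in isosmotic and 17.0 and 13.3 CPM in 1 h Nrf2-/- cells, below WT SFN cells by 0.83 ± 0.17 (adjusted p = 0.00132, edgeR) and 0.94 ± 0.17 log2 units (adjusted p = 0.000552, edgeR). Its 2 Nrf2-/- groups overlapped. The 1 h Nrf2-/- libraries, at 13.3 and 17.0 CPM, were above the WT DMSO libraries of the same time and below the WT SFN ones. The comparison with WT DMSO cells at 1 h, in which genotype and SFN both differ, was not tested. Cbr1 was 23.5 and 26.5 CPM in isosmotic Nrf2-/- cells and 35.5 and 16.7 CPM at 1 h, where the 2 libraries of the group differ more than the genotypes do. Its log2 fold changes were -0.68 ± 0.23 (adjusted p = 0.0376, edgeR) and -0.64 ± 0.23 (adjusted p = 0.0517, edgeR). The isosmotic call was lost without any 1 of 12 libraries (adjusted p 0.0519 to 0.191) and had adjusted p = 7.67e-06 without both Nrf2-/- 1 h libraries, and the 1 h value ranged from -1.27 without replicate 1 to -0.19 without replicate 2 of the Nrf2-/- 1 h pair.

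Akr1b8 was 32.1 and 32.8 CPM in isosmotic Nrf2-/- cells and 37.3 and 29.5 CPM at 1 h, lower than in WT SFN cells by 0.28 ± 0.11 (adjusted p = 0.0690, edgeR) and 0.43 ± 0.11 log2 units (adjusted p = 0.00866, edgeR). The 1 h call was lost without replicate 1 of the WT SFN 1 h libraries (log2 fold change -0.36, adjusted p = 0.103). Ptgr1, prostaglandin reductase, which also reduces the double bond of unsaturated aldehydes and ketones, did not pass in either state. Its values were 12.2 and 14.0 CPM in isosmotic and 20.1 and 13.0 CPM in 1 h Nrf2-/- cells, against 11.5 to 15.5 CPM in WT cells, and its isosmotic 95% interval was -0.37 to 0.43 log2 units. At 1 h it was 0.41 ± 0.19 log2 units (adjusted p = 0.113, edgeR), and 0.69 (adjusted p = 0.00136) without replicate 2 of the Nrf2-/- 1 h libraries.

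Together 5 of 9 genes were lower in Nrf2-/- cells under isosmotic conditions and 5 of 9 at 1 h, and none was higher, beside 18.4% and 16.2% of all tested genes called lower (34.1% and 31.5% in either direction). Nqo1, Cbr3, Ephx1 and Osgin1 were called in both states, Cbr1 in the first and Akr1b8 in the second. Fitted with only the libraries compared, the 1 h calls of Ephx1 (adjusted p = 0.0649), Osgin1 (0.0516) and Akr1b8 (0.217) were lost, and that of Akr1b8 was also lost with limma-voom (0.1002). Cbr1 at 1 h, short of the threshold here, passed with DESeq2 (adjusted p = 0.0380), limma-voom (0.0448), RLE size factors (0.0474), no filter (0.000462) and at least 10 counts in every library (0.0422). Libraries of the genotypes were apart, with Nrf2-/- lower, for 7 of 9 genes in each state, where 34.6% and 30.8% of tested genes were, and the 7 include the thinly counted Aldh3a1 under isosmotic conditions and Aox1 at 1 h. Ptgr1 libraries were apart at 1 h with Nrf2-/- higher, a direction for which the share of all tested genes was not counted. Against isosmotic WT DMSO cells, where genotype and SFN both differ, 6 of 9 genes were lower (Akr1b8, Cbr1, Cbr3, Ephx1, Nqo1 and Osgin1), beside 20.8% of tested genes called lower and 38.8% in either direction. Among the 14 kidney epithelial markers, the sum was 2270 to 2878 CPM in the 4 WT SFN libraries of the same states and 2360 to 2967 CPM in the 4 Nrf2-/- libraries, but single genes differed in both directions. Under isosmotic SFN conditions the group means of WT and Nrf2-/- cells were 200.4 and 20.5 CPM for Cdh16, 142 and 26.9 CPM for Pax2 and 2.62 and 0.508 CPM for Gata3, against 48.8 and 284 CPM for Epcam, 143 and 438 CPM for Cdh1 and 8.30 and 32.4 CPM for Hoxd8. In the same 8 libraries, the summed level of 4 proximal tubule markers, of which Lrp2 and Cubn exceeded a mean of 1 CPM, was 9.71 to 12.7 CPM in WT and 2.50 to 5.71 CPM in Nrf2-/- cells. Summed leukocyte markers (3 of 4 over 1 CPM) were 5.85 to 8.495 and 3.81 to 8.81 CPM, fibroblast markers (1 of 5) 2.11 to 5.08 and 2.54 to 4.41 CPM, and endothelial markers (1 of 3) 0.0536 to 0.704 and 0.161 to 0.878 CPM, all 3 overlapping. The part of these differences in the results was not tested.

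**Figure D5:**
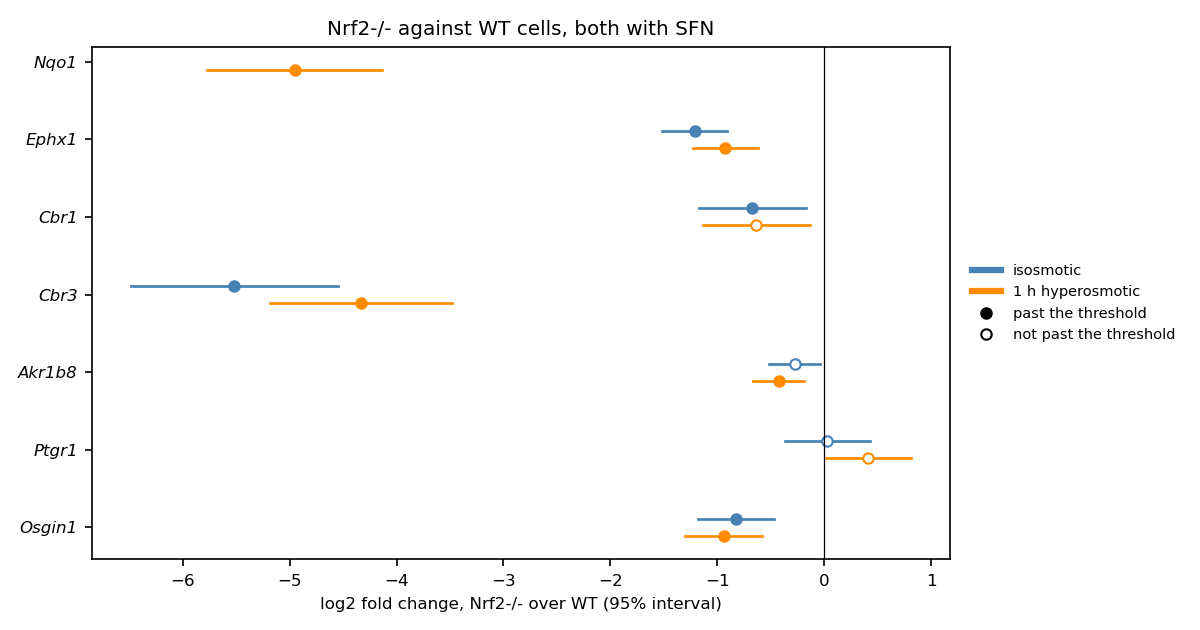
Log2 fold change of Nrf2-/- over WT cells, both with SFN (x axis, with 95% interval from edgeR), under isosmotic conditions (blue) and at 1 h (orange) for the 7 genes with a mean of at least 50 counts; filled points had an adjusted p under 0.05. Isosmotic Nqo1 is not drawn because both Nrf2-/- libraries held 0 counts; Nqo1 at 1 h (-4.95) and Cbr3 (-5.51 and -4.33) lie far from the other genes, and Ptgr1 lies at 0.03 and 0.41.

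Stress for 1 h in Nrf2-/- SFN cells moved 1 of 9 genes past the test, beside 7.17% of all tested genes. This was Nqo1, from 0 and 0 counts to 9 and 4 counts. The 1 h mean was 2.23-fold above the floor of 3 counts per library. That ratio leaves out the error of the 9 and 4 counts and is no lower bound. The call was lost with limma-voom (adjusted p = 0.525) and without either isosmotic Nrf2-/- library. No member passed the test of whether the 1 h stress effect differed between genotypes (1 at an unadjusted p under 0.05 in edgeR, 0 by DESeq2 and by limma-voom), beside 0.123%.

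The 2 remaining genes were hardly expressed. Aldh3a1, an aldehyde dehydrogenase best known from cornea and stomach, had 0 to 11 counts a library, with 7 of 16 libraries at or under 3 counts, and it passed the filter through its 6 h libraries. It had 10 and 7 counts with DMSO and 11 and 11 counts with SFN at 6 h, and 0 to 8 counts elsewhere, too few for a fold change to be read. Aox1, a molybdenum and flavin aldehyde oxidase, had 4 and 8 counts in isosmotic DMSO and 32 and 25 counts in isosmotic SFN cells, 15 and 17 against 28 and 33 counts at 1 h, and 6 and 0 against 11 and 11 counts at 6 h. SFN libraries were the higher of each pair of groups, and the isosmotic log2 fold change was 2.23 ± 0.80 (adjusted p = 0.177, edgeR). Aox1 was detected in all 4 Nrf2-/- libraries, at 18 and 6 counts isosmotic and 18 and 18 counts at 1 h.

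A list of 60 further genes for quinone, carbonyl, aldehyde and epoxide metabolism, with paralogs of the 9, was read beside them, and 52 of the 60 were tested. Under SFN in isosmotic WT cells 3 rose (Adh7, Esd and Aldh18a1) and 1 fell (Aldh1a2), and at 1 h and 6 h 2 rose, Adh7 and Esd in each (7.69%, 3.85% and 3.85% called, beside 2.84%, 0.0923% and 0.041% of all tested genes). Adh7, an alcohol dehydrogenase active on retinol, was 51.1 and 50.1 CPM with DMSO and 95.1 and 106 CPM with SFN (log2 fold change 0.99 ± 0.10, adjusted p = 2.53e-05, edgeR). Esd, the hydrolase that completes formaldehyde removal through glutathione, was 262 and 300 CPM and then 430 and 429 CPM (0.61 ± 0.11, adjusted p = 0.00500, edgeR). The median of the 52 was -0.07, -0.03 and -0.06 log2 units in the 3 states.

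At 6 h with DMSO 12 of the 52 rose and 15 fell (51.9% called, beside 45.9% of all tested genes), and among the nearest relatives of the 9 genes Nqo2 (-0.65 ± 0.13), Cbr4 (-1.60 ± 0.15), Osgin2 (-0.57 ± 0.15) and Aldh3a2 (-0.47 ± 0.09 log2 units) fell, with adjusted p = 0.00109, 1.43e-06, 0.00592 and 0.000955 in edgeR. Nqo2, Cbr4, Osgin2 and Aldh3a2 did not pass the SFN tests, and Ephx2, at a mean of 2.69 counts, was not tested. Against WT SFN cells, Nqo2 and Akr1b3 were called lower in Nrf2-/- cells, isosmotic and at 1 h, and Cbr4 was called higher at 1 h. Osgin2 and Aldh3a2 were called in neither state, and Osgin2 was called higher against isosmotic WT DMSO cells, where genotype and SFN both differ. In Nrf2-/- SFN cells 8 rose and 18 fell under isosmotic conditions and 8 rose and 15 fell at 1 h (26 and 23 of 52 called, beside 34.1% and 31.5% of all tested genes), with medians of -0.35 and -0.20 log2 units.

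Aldh1a2, which makes retinoic acid, fell most surely, from 49.0 and 48.9 CPM in WT to 2.33 and 2.26 CPM in Nrf2-/- isosmotic SFN cells (log2 fold change -4.41 ± 0.13, adjusted p = 6.39e-12, edgeR) and SFN lowered it in isosmotic WT cells (-0.41 ± 0.10, adjusted p = 0.0471, edgeR). Adh7 (-2.56 ± 0.10), Esd (-1.91 ± 0.11), Aldh3b1 (-3.09 ± 0.21), Cyb5r3 (-1.61 ± 0.11), Aldh2 (-1.87 ± 0.22), Aldh4a1 (-1.80 ± 0.16) and Aifm2 (-1.46 ± 0.14), the last a quinone reductase that recycles coenzyme Q, fell as well (largest adjusted p = 1.48e-05, edgeR). Akr1c13 rose from 3.67 and 2.85 to 17.5 and 16.6 CPM (2.39 ± 0.20 log2 units, adjusted p = 4.06e-07, edgeR), and Aox4, a neighbour of Aox1, was at 0 CPM in both WT SFN isosmotic libraries and at 7.51 and 8.73 CPM in Nrf2-/- ones. Aldh18a1, which SFN raised in isosmotic WT cells, was also called higher in Nrf2-/- than in WT SFN cells, isosmotic and at 1 h.

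Across the 16 libraries, the genes whose log2 CPM followed Nqo1 most closely among 12290 genes were Ftl2-ps (Pearson r 0.986, a pseudogene that may share reads with ferritin light chain genes), Ephx1 (0.975), Fth1 (0.968), Esd (0.965) and Gsta2 (0.964). Within the set, r with Nqo1 was 0.953 for Cbr3, 0.721 for Cbr1 and 0.109 for Osgin1, and r between Akr1b8 and Osgin1 was -0.73. These correlations describe 16 libraries in 8 groups that share genotype, treatment and depth, and the 4 Nrf2-/- libraries are the 4 lowest for Nqo1.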

How the data were processed

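RNA-seq counts of 16 mIMCD3 libraries, 2 for each of 8 groups, were grouped by the sample labels. The authors deposited raw counts per gene symbol, 1 file per library, made from reads aligned to mm10, sorted with Samtools and counted with featureCounts. The aligner is Hisat2 in the paper's methods and Bowtie2 in the submitters' processing notes. Versions, annotation, strand and the treatment of shared reads are not given in the sources used here. The extraction protocol speaks of primary cells and the other labels of mIMCD3. The 5 lines without a gene name in 2 libraries were not used. Among genes with 1 to 10 counts in a library, 58.0% to 68.5% had an even number, which leaves the independence of single counts uncertain, and floors cover counting error only.

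Analyses used R 4.3.3 with edgeR 4.0.16 (TMM, filterByExpr with a minimum count of 10, robust quasi-likelihood F-test, 1 coefficient per group, Benjamini-Hochberg adjustment over 19509 genes, threshold 0.05), DESeq2 1.42.0 and limma 3.58.1. SE is the log2 fold change divided by the root of F, and the 95% interval uses the fit's degrees of freedom. CPM are TMM normalized, and the prior count for log2 CPM was 2. All pairs of libraries differed by more than sampling noise. The code was tested on simulated counts. Replicate numbers were not used as pairs in the fit reported, and a batch shared between groups was not tested. Alternatives were DESeq2, limma-voom with sample weights, RLE size factors, other filters, subsets of libraries, a replicate block and leaving out each library.

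The 9 members, the list of 60 genes and the markers were chosen with earlier results of these data known. Further genes are named by a rule: listed genes with a mean of at least 50 counts that were called in an SFN or genotype comparison, ranked by their smallest adjusted p over those comparisons only, up to 12, and 6 nearest relatives of the members whatever their values. Akr1b10 was added for its shared sequence with Akr1b8. Shared sequence was counted as identical stretches of 50 bases in GENCODE M21 transcripts, and gene positions are from GENCODE M21 on GRCm38. Comparisons that share groups are not independent of each other.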

Additional observations from a re-analysis of the deposited data

Results flagged for a closer look

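In 5 cases every library moved one way in one comparison and the opposite way in another. The share of all tested genes with such a pattern was not counted, so the 5 cases are a description only. Libraries apart in 1 direction were found for 20.7% to 34.6% of tested genes in the SFN and genotype comparisons. In Nqo1, 1 h of stress went with higher counts in Nrf2-/- SFN cells and lower ones in WT cells, and the fitted difference of the log2 changes was 6.18 against WT SFN cells (interaction adjusted p = 0.0973, edgeR) and 6.49 against WT DMSO cells, the latter not tested. Both rest on an isosmotic Nrf2-/- group at 0 counts, so they depend on the prior count and are no bounds. In Ephx1, 1 h of stress went with 12.1 and 9.14 CPM after 8.02 and 8.33 CPM in Nrf2-/- SFN cells and with 16.7 and 15.5 CPM after 17.4 and 18.5 CPM in WT DMSO cells, a difference of 0.53 log2 units that was not tested.

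In Akr1b8, 1 h of stress moved SFN cells up and DMSO cells down, a difference of 0.37 log2 units (interaction adjusted p = 0.605, edgeR). In Ptgr1, SFN libraries were above DMSO libraries at 1 h and below them at 6 h, a difference of -0.17 log2 units that was not tested. No group of 4 or more libraries existed in which a single library could be tested as standing apart.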

How the results depend on the processing

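Among the members' fold changes printed or plotted, 2 that were near 0 and not called turned direction other than by leaving out single libraries. For 6 h of stress with DMSO, Ephx1 went from 0.0025 to -0.0093 without a filter and -0.025 without both Nrf2-/- 1 h libraries, and Ptgr1 from 0.018 to -0.010 without that pair. The depth limits Aldh3a1, Aox1 and, in Nrf2-/- cells, Nqo1 and Cbr3. RLE size factors moved the median of all genes by at most 0.0881 log2 units. For SFN in isosmotic cells the 1 member called became 2 with DESeq2, without a filter and with only the libraries compared, and 3 with limma-voom, the 12 WT libraries or without both Nrf2-/- 1 h libraries. It became 0 with at least 10 counts in every library, a filter that removed Nqo1, Cbr3, Aldh3a1 and Aox1. For SFN at 1 h the 2 became 4 with only the libraries compared and 1 under that count filter and with the replicate number as a block. Cbr3 was called there as well with DESeq2, limma-voom, no filter, the 12 WT libraries and without both Nrf2-/- 1 h libraries. The deviations of same-numbered libraries correlated at -0.246 to 0.403 between groups (median -0.0111), over 0.1 in 3 of 28 pairs of groups. Whether libraries were paired under other numbers or shared a batch was not tested. For SFN at 6 h the 0 became 1 (Nqo1) with DESeq2, limma-voom, only the libraries compared, the 12 WT libraries and without both Nrf2-/- 1 h libraries. For stress at 6 h with DMSO the 2 became 4 with limma-voom. For Nrf2-/- against WT the 5 became 3 in isosmotic cells with at least 10 counts in every library and 2 at 1 h with only the libraries compared. In the former, Nqo1 and Cbr3 were removed by the filter, and Cbr1, Ephx1 and Osgin1 kept their calls. For stress in Nrf2-/- cells the 1 became 0 with limma-voom, the count filter and only the libraries compared. For the interaction of SFN and 1 h stress the 0 became 1 (Osgin1) with DESeq2, limma-voom, no filter, only the libraries compared, the 12 WT libraries and without both Nrf2-/- 1 h libraries, and for that of genotype and stress it became 1 without a filter. These causes were not tested.

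Leaving out each library gave 0 to 3 members for SFN in isosmotic cells, 0 to 3 at 1 h and 0 to 1 at 6 h. It gave 1 for stress at 1 h and 2 to 3 at 6 h with DMSO, 0 and 2 to 4 with SFN, and 0 to 4 in Nrf2-/- cells. It gave 4 to 6 for Nrf2-/- against WT in either state and for Nrf2-/- SFN against WT DMSO, where Cbr1 (adjusted p up to 0.152) and Osgin1 (up to 0.132) lost their calls, and 0 to 1, 0 and 0 to 2 for the interactions with SFN at 1 h, SFN at 6 h and genotype. Small uncalled log2 fold changes changed sign on leaving out a library. These were, for SFN in isosmotic cells, Cbr1 (-0.23 to 0.080), Ephx1 (-0.0073 to 0.16) and Ptgr1 (-0.27 to 0.080), and for SFN at 1 h Akr1b8 (-0.030 to 0.12). For stress at 1 h they were Cbr3 (-0.21 to 0.11) and Cbr1 (-0.30 to 0.0065) with DMSO, Cbr1 (-0.0032 to 0.053), Ptgr1 (-0.13 to 0.038) and Osgin1 (-0.038 to 0.091) with SFN and Osgin1 in Nrf2-/- cells (-0.28 to 0.079), for 6 h of stress Ephx1 (-0.048 to 0.040) and Ptgr1 (-0.15 to 0.20) with DMSO and Ptgr1 with SFN (-0.050 to 0.11), for Nrf2-/- against WT in isosmotic cells Ptgr1 (-0.080 to 0.12), and for the 1 h interaction Cbr3 (-0.0058 to 0.31).

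Counts over all genes moved by over 1.5 times in most comparisons. Under the alternatives that keep single libraries, SFN called 440 to 2875 (555 in the fit reported), 13 to 809 (18) and 2 to 106 (8) genes in the 3 states. Stress at 1 h called 654 to 4334 (2186) with DMSO, 535 to 3603 (1857) with SFN and 7 to 2130 (1399) in Nrf2-/- cells, Nrf2-/- against WT at 1 h 1651 to 6468 (6154), and the interactions 83 to 585 (109), 129 to 803 (148) and 0 to 160 (24). Leaving out 1 library gave 171 to 2742, 6 to 98 and 1 to 49 for SFN, 948 to 4275, 709 to 3323 and 538 to 5079 for 1 h of stress, 3946 to 8917 for Nrf2-/- against WT at 1 h, 4491 to 8922 in isosmotic cells (6643) and 5041 to 9573 against WT DMSO (7563), and 48 to 587, 69 to 765 and 8 to 2072 for the interactions. The Nrf2-/- 1 h replicate left out at the upper end was replicate 2 for stress with DMSO and for both isosmotic genotype comparisons, and replicate 1 otherwise.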
